A study of Mus musculus with 12 samples.

Results

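A promoter interval is a stretch of chromatin that carries H3K27ac, histone H3 acetylated at lysine 27, and whose centre lies close to a transcription start site. The intervals described here are those whose annotation by the authors begins with promoter-TSS and whose length is below 20000 bp. There were 8169 of them among 126464 intervals in all (6.46%), and 179 further promoter-TSS intervals were at or above that length. The rule uses position and length only, and no measured value. H3K27ac ChIP-seq was performed on 4T1 cells, a mouse triple-negative mammary carcinoma line labelled as wild type, with human chromatin at 7.5% as a spike-in. Cells were kept for 48 h in vehicle, in 50 µM etomoxir or in the inhibitor pair etomoxir + SB204990, each at 50 µM, and each of these 3 backgrounds was also run with 5 mM acetate added (acetate, etomoxir + acetate, and etomoxir + SB204990 + acetate). Each of these 6 groups had 2 libraries, called set 1 and set 2 after the suffix in their names. Neither the meaning of this suffix nor whether the cultures were separate is given in the labels, so the p-values measure only the spread between these libraries, which may be technical.

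Acetylation of lysine 27 is laid down by the acetyltransferases p300 and CBP from acetyl-CoA, is removed by histone deacetylases, and marks promoters and enhancers in use. Acetate enters the acetyl-CoA pool through acyl-CoA synthetases, etomoxir blocks the carnitine palmitoyltransferase step that admits long-chain fatty acids to mitochondria, and SB204990 blocks ATP citrate lyase, which makes acetyl-CoA from citrate. At promoters the mark lies on the nucleosomes that flank the start site, and CpG-rich promoters, typical of widely used genes, tend to carry it broadly. The comparisons here ask how far the acetylation of promoters followed acetate with and without these inhibitors.

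Of the 8169 intervals, 3008 held the start site of a RefSeq promoter window (250 bases before to 50 after a gene's start, GRCm38.p6), and these windows differed widely in CpG content. The windows below are shown as examples of the classes that the results turn on, each 5′ to 3′ on the strand of its gene, with every CG dinucleotide in capitals. Dusp6 (chr10:99262981-99263280, plus strand) and Rpl13a (chr7:45128696-45128995, minus strand) come from strong intervals. Sync (chr4:129287371-129287670, plus strand) and Fam131b (chr6:42324591-42324890, minus strand) come from intervals that rose with acetate. Plscr4 (chr9:92457128-92457427, plus strand) rose with acetate in the presence of both inhibitors, and Fbp2 (chr13:62858351-62858650, minus strand) was higher with etomoxir.
Dusp6: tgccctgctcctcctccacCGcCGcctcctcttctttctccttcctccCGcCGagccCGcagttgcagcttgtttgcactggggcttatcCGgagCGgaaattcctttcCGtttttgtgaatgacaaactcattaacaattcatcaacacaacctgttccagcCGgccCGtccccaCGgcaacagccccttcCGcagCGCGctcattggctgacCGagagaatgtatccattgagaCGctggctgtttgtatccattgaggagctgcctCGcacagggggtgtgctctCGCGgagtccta
Rpl13a: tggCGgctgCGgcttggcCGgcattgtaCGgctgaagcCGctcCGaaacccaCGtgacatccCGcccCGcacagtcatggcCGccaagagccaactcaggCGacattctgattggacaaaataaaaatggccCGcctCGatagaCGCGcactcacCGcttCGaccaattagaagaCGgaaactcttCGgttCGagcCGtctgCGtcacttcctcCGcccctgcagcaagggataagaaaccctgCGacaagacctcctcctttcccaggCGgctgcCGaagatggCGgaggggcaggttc
Sync: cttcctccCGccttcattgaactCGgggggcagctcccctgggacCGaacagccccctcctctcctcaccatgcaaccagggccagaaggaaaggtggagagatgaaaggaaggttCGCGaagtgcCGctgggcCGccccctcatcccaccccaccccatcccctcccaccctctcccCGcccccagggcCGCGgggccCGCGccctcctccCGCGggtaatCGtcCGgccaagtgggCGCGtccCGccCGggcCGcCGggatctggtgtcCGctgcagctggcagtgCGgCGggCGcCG
Fam131b: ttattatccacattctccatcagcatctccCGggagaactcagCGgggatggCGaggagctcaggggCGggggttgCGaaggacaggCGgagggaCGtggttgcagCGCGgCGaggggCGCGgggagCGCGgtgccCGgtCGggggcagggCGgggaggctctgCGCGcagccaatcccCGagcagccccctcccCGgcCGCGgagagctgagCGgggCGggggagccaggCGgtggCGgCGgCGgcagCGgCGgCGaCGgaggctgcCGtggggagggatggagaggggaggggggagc
Plscr4: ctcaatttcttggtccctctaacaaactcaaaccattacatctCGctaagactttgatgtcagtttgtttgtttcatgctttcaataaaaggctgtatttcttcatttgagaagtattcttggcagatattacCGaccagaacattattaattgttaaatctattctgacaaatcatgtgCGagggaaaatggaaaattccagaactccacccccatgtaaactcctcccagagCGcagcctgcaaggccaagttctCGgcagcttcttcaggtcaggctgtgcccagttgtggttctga
Fbp2: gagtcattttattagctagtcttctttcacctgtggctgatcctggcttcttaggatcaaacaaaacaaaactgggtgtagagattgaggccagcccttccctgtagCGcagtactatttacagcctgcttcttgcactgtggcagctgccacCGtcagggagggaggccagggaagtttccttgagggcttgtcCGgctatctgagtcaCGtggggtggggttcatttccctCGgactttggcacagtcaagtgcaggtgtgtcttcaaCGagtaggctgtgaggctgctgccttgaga

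The Fam131b window held 34 CG dinucleotides, those of Sync and Rpl13a 27 each and that of Dusp6 19, whereas the Fbp2 window held 6 and the Plscr4 window 5. The ratio of observed to expected CG was 0.292 in Fbp2 and 0.384 in Plscr4 and lay between 0.709 and 1 in the other 4. With a limit of 0.6 for this ratio, 65.6% of the 3008 windows matched to these intervals were CpG-rich, against 35.8% of all 32851 RefSeq windows. Short motifs were searched on both strands of the same windows, and they may overlap each other. GGGCGG, the GC box bound by SP factors, was in 58.7% of the windows matched to these intervals and in 35.7% of all windows. CCGGAAG, an ETS site, was in 17.8% and 8.86%. GCATGCGC, a core of the NRF1 site, was in 4.69% and 2.71%, and TGACGTCA, the cAMP response element, was in 3.22% and 1.79%. CACGTG, the E-box, was in 9.14% and 7.15%, and CCAAT was in 38.1% and 37.4%. TATAAA, the TATA box, was in 7.41% and 13.6%, and TGANTCA, the AP-1 site, was in 6.12% and 7.81%. A match is a description of these letters and not of a bound factor.

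The intervals were 168 to 19994 bp long, with a median of 1373 bp against 696 bp for all other intervals. They were assigned to 6358 genes, of which 1271 had more than 1 interval. The centre lay between 1000 bp before and 100 bp after a start of the annotated gene in 7720 of them, with a median of 262 bp upstream. The annotated gene was protein-coding for 6999 and of another type for 1170. For 25.2% of the intervals the gene the authors list as nearest was not the gene named in the annotation, and the annotated gene is used for names here. The class goes by the centre of an interval, so promoters whose acetylated stretch is centred elsewhere are in other classes. Of 15804 intervals under 20000 bp that held a start site in GENCODE vM21, 5949 were promoter-TSS intervals and 6108 were annotated as intron.

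Whether an interval covered its start site went with its length, which largely follows from the class itself. In 7720 of them the centre lay within 1000 bp before to 100 bp after a start. Any of these at or above 2000 bp covers that start by position alone. Of the 8169 intervals, 5915 (72.4%) held a start of their annotated gene. Of the 2022 intervals under 500 bp 32% did so, as did 53.9% of the 1513 from 500 to 999 bp, 84.7% of the 1158 from 1000 to 1999 bp and 99.8% of the 1946 from 2000 to 4999 bp. All 375 intervals of 10000 bp or more did. The scaled value, the read count multiplied by the authors' spike-in factor, followed the same order. The median of the 12-library means was 5.36 under 500 bp and 536 from 10000 bp up. Per kb the medians were 18.1 and 41.4, and the lowest was 15.3 at 500 to 999 bp. Intervals that held their start had a median of 22.3 per kb, and the 2254 that did not had 16.9. The median per kb over all of them was 19.7, against 16.3 for all other intervals and 46.2 for the 179 promoter-TSS intervals at or above 20000 bp. The 3 longest intervals below it (19727 to 19994 bp) had 44.8 to 55.6 per kb and the 3 shortest above it (20055 to 20102 bp) had 30.1 to 43.4 per kb, so these 2 groups of 3 did not overlap.

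**Figure D1:**
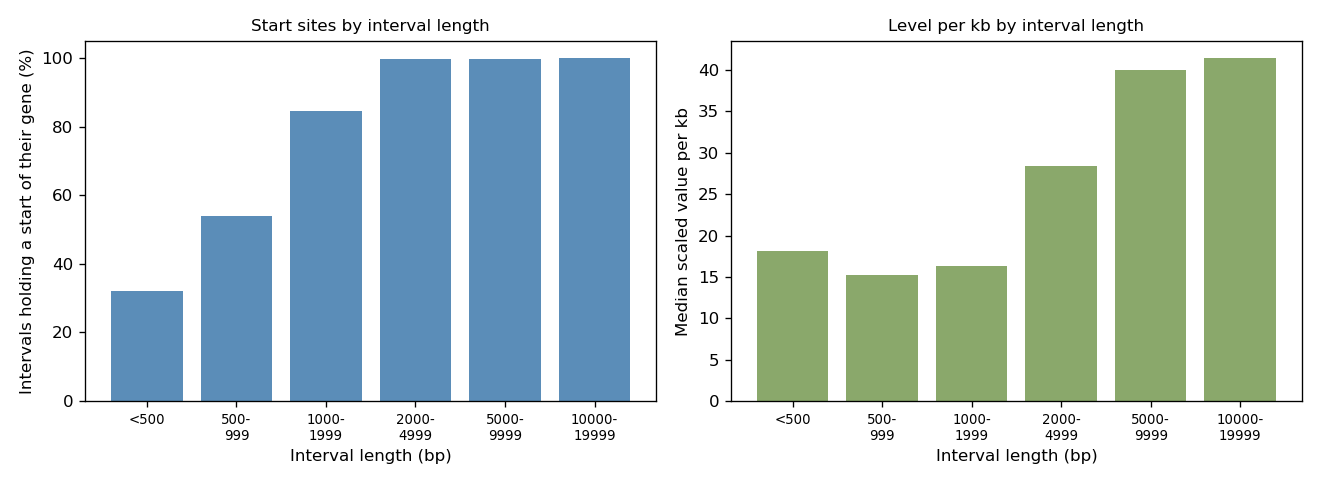
Share of promoter intervals holding a start site of their gene (left, percent) and median scaled value per kb (right, mean of the 12 libraries) in 6 classes of interval length in bp. From 2000 bp up at least 99.8% held a start, which the position of the centre near a start largely fixes. The level per kb was 28.4 to 41.4 in these longer classes and 15.3 to 18.1 in the shorter ones.

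By mean scaled value the leading named gene was Ndufb9, a subunit of respiratory complex I, with 2059 over 15597 bp and 132 per kb. Dusp6, the phosphatase that shuts off ERK, had 1926 and 123 per kb. Hspa8, the constitutive Hsp70 chaperone, had 1815 over 8432 bp and 215 per kb. Rpl13a, a ribosomal protein, had 1689 over 19332 bp and 87.4 per kb. Rhoc, a small GTPase, had 1519, and the remaining 3 of the 10 strongest were the intervals of Fam76b with Cep57 (1632), of E130317F20Rik with the start of Ptbp1 (1379) and of Inava (1263). Above Ndufb9 stood only an interval of AC149090.1 on an unplaced scaffold, with 2728. Next after it per kb were the AY036118 and Gm26917 intervals on chromosome 17, with 436 and 422. These lie at a locus known to collect ribosomal RNA reads, and the values of repeated sequence depend on how the reads were placed, so they are uncertain.

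Intervals stood at the start sites of a larger part of the epithelial markers than of the markers of other cell types. Intervals at the start sites of all 10 mammary epithelial markers were present, with means of 399 to 4050, and the Krt14 and Cldn7 intervals were promoter intervals under 20 kb. Of 10 leukocyte markers 2 had an interval at a start (Csf1r, 223, and Spi1, 56.3), of 8 endothelial markers 3 (highest Pecam1, 679) and of 9 fibroblast markers 4 (highest Pdgfra, 191). Ptprc, Cd3e, Itgam, Kdr, Vwf, Dcn and Pdgfrb had none. Per kb the lists lay closer, since Pecam1 had 47.4 and Pdgfra 43.4, against 33.2 (Krt19) to 70.4 (Cldn4) for the epithelial markers. The rest of the other lists had 15.1 (Cldn5) to 26.9 (Cdh5) per kb. Summed levels also depend on interval length, which was 80588 bp at Krt8 and Krt18. The summed level of the leukocyte list was 203 to 244 in vehicle and 408 to 425 in etomoxir + acetate, and that of the epithelial list, in which the interval that Krt8 and Krt18 share is counted for each, was 13920 to 14730 and 24060 to 25600. That of the fibroblast list was 308 to 334 and 688 to 710, and that of the endothelial list 636 to 705 and 1116 to 1158.

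Reads in all intervals ranged from 7179165 to 16676442 per library, and those in the promoter intervals under 20 kb from 624021 to 1589006. The factors ranged from 0.398 to 1, and 1 library of each set had a factor of 1, so the scale is separate in each set. These promoter intervals took 8.69% to 9.79% of the reads of a library, and the 95% Wilson interval of the lowest share, which covers counting error only, was 8.67% to 8.71%. Set 2 of etomoxir + SB204990 was unlike the other libraries. It had the fewest reads, the lowest of these shares and 41.5% of its reads in intervals without a start site, against 32.6% to 37% in the other 11.

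With acetate the scaled values of these promoters, as the authors scaled them, were higher in every background. The vehicle libraries summed to 654846 in set 1 and 699103 in set 2 over the 8169 intervals, and the acetate libraries to 959181 and 906202. Etomoxir alone gave 751754 and 749683, and etomoxir + acetate gave 1243008 and 1177120. Etomoxir + SB204990 gave 524254 and 624021, and with acetate added 794694 and 1047183. The acetate libraries did not overlap those without acetate in any background, and the 2 groups with the inhibitor pair had the widest gaps between their sets. The mean rise over the 3 backgrounds was 0.61 on the log2 scale, 1.52-fold, and it was seen in 6 of 6 same-set pairs (0.37 to 0.75). By the exact two-sided permutation of acetate labels within backgrounds p was 0.00926, the smallest that 216 arrangements allow. A depth-free scaling was also tried, in which the factor is applied to a library's read share and not to its reads. Whether the factors already allow for depth is not given in the sources used here. With it the rise was 0.404 with p = 0.12 in the same exact test, and 5 of 6 pairs were higher. The pair with both inhibitors in set 2 was lower, with a log2 change of -0.11, and the vehicle libraries (4.48 and 7.22, as percent of reads times factor) overlapped those with acetate (5.75 and 7.81), as did etomoxir + SB204990 (3.9 and 8.69) those with acetate added (5.98 and 8.06). Etomoxir (5.36 and 5.47) and etomoxir + acetate (9.1 and 8.75) did not overlap.

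Whether promoters rose differently from the rest depended on the measure. The log2 ratio of the promoter total to the total of all other intervals, which does not depend on factor or depth, differed with acetate by -0.02 (exact permutation p = 0.611, adjusted p = 0.833 over 3 such tests), and was lower in 5 of 6 pairs. With the median of log2(scaled value + 1) in place of sums, the difference between promoters and other intervals had the opposite sign, 0.124, with an exact permutation p of 0.00926. In the ratio of sums, the pair with both inhibitors in set 2 went the other way, by 0.11, and the same pair in set 1 by -0.09. Without the etomoxir + SB204990 library of set 2 the difference was -0.052 (exact permutation p = 0.0556), and without that of set 1 it was 0.0112 (exact permutation p = 0.806). Etomoxir moved this ratio by -0.0064 (exact permutation p = 0.833) and etomoxir + SB204990 by -0.0123 (exact permutation p = 0.722), where 36 arrangements cannot give a p below 0.0556. A further 3 narrower denominators were added after the data were seen, which made 9 relations with the 3 treatments. Against other intervals that hold a start site, acetate lowered the ratio in 6 of 6 pairs by a mean of -0.0201 (exact permutation p = 0.0185, adjusted p = 0.167). None of the 9 passed the adjustment.

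**Figure D2:**
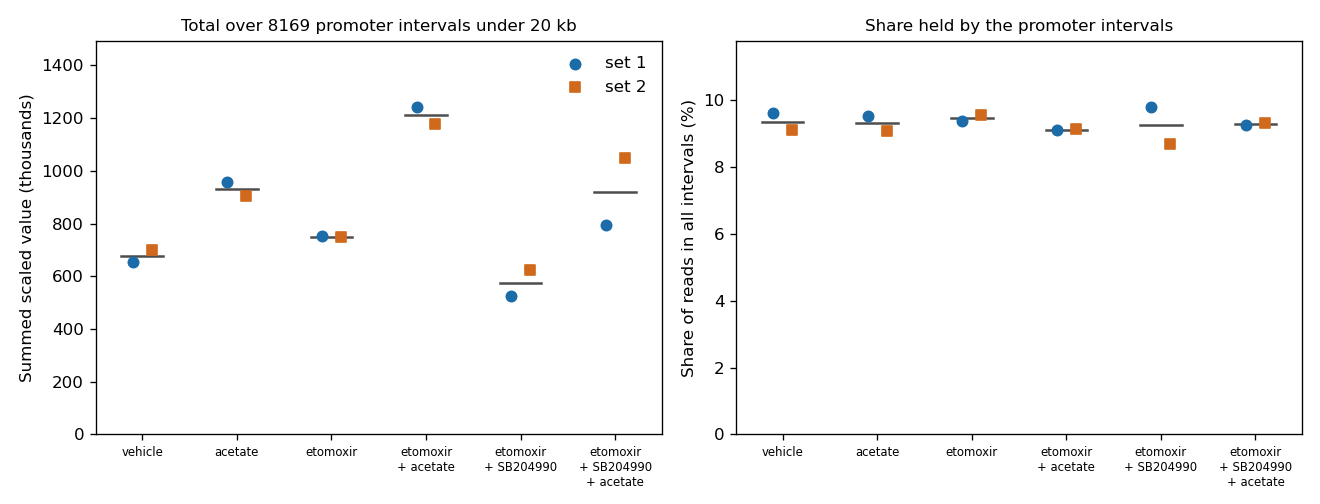
Summed scaled value over the 8169 promoter intervals divided by 1000 (left) and their share of the reads in all intervals in percent (right) for the 6 treatments. Points are libraries (circles set 1, squares set 2) and bars are means of 2. All acetate totals lie above the totals of their background without acetate, while the shares stay between 8.69% and 9.79%.

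Single intervals were tested by limma on log2(scaled value + 1), in 1 fit over the 63903 intervals that averaged 10 or more, with Benjamini-Hochberg adjustment over all of them. Of the 8169 promoter intervals 5593 (68.5%) entered the fit, and 2576 were too low. Of all other intervals 49.3% entered. Averaged over the 3 backgrounds, acetate raised 4901 and lowered 0 of the 5593 (limma, adjusted p under 0.05; 87.6%), where 77.2% of all tested intervals were called higher and 0.00156% lower. The unadjusted p was under 0.05 for 5032. The median log2 change was 0.63 for these promoters and 0.64 for all tested intervals. Among intervals with a mean of 10 to 20, 59.2% of the promoters and 50.5% of the others were called, from 20 to 50 it was 88.5% and 83.4%, and from 50 to 100 it was 98% and 97.3%. With median-of-ratios or depth-free scaling 0 promoters were called.

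Among the promoters with the largest average rise, Mrgprf, an orphan receptor of the Mas-related family (chr7:145298532-145301244), held 48.1 and 48.3 in vehicle, 117 and 108 in acetate, 46.3 and 49.2 in etomoxir, 119 and 95 in etomoxir + acetate, 30.7 and 49 in etomoxir + SB204990, and 91.8 and 86.7 with acetate added. Every acetate library of this interval lay above every library without acetate. Its average change was 1.17 ± 0.17 (SE) on the log2 scale, with a limma adjusted p of 4.2e-10. Cish, a feedback inhibitor of cytokine signalling of the SOCS family (chr9:107294887-107298782), had 65.7 to 101 in the 6 libraries without acetate and 154 to 239 in the 6 with it, and changed by 1.09 ± 0.14. Rcor2, a corepressor of the CoREST family, had 144 to 203 and 277 to 481, and changed by 1.03 ± 0.12. Others that rose by over 1 included Fam131b (1.2), a Gm15569 interval that also holds the start of the ceramide kinase gene Cerk (1.13), the Arf exchange factor gene Iqsec1 (1.08) and Polrmt, the mitochondrial RNA polymerase (1.04). With median-of-ratios scaling, which sets the common shift to about 0, the named intervals had changes of 0.38 to 0.56 and none passed (limma adjusted p 0.29 to 0.59). With depth-free scaling they had 0.83 to 1 and an adjusted p of 0.477.

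Without inhibitor, acetate raised 8 of the 5593 promoters over vehicle and lowered 0, where 0.0955% of all tested intervals were called higher, and the medians were 0.476 and 0.478 (0.254 and 0.258 with depth-free scaling). Sync, which encodes the intermediate filament protein syncoilin (chr4:129283073-129290834), had 106 and 141 in vehicle and 251 and 292 in acetate. Both acetate values were above both vehicle values, with a change of 1.14 ± 0.23 and a limma adjusted p of 0.0076. Pdgfra, the receptor for platelet-derived growth factor A (chr5:75152783-75157181), had 108 and 114 in vehicle and 254 and 227 in acetate, and changed by 1.11 ± 0.23 with a limma adjusted p of 0.011. Plekhh2, which encodes a pleckstrin homology domain protein, had 108 and 120 against 248 and 250, a change of 1.12 ± 0.23. The other 5 were Arid3a, Rcor2, Gm34150, Capn5 and a Gm26885 interval that holds the start of the kinase gene Pim1, with changes of 0.82 to 0.94. Pdgfra and Sync followed acetate in the other backgrounds too, since their etomoxir + acetate libraries held 282 to 316 and their etomoxir libraries 127 to 153.

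This count of 8 was unstable in both directions. It was 0 with median-of-ratios scaling, with depth-free scaling, with no filter and with no intensity trend, where Sync had changes of 0.64, 0.92, 1.14 and 1.14 with adjusted p of 1, 1, 0.228 and 0.311. It was 698 among intervals that averaged 50 or more, 208 with the set as a block in the fit, and 1883 in a fit of the 4 libraries compared alone. It was 0 without any 1 of the vehicle library of set 1 or the acetate, etomoxir or etomoxir + acetate libraries of either set, and 1 without the vehicle library of set 2. With the set 1 or set 2 library of etomoxir + SB204990 left out it was 1541 or 1555, and with that of etomoxir + SB204990 + acetate left out 682 or 681. Sync had 1.14 with an adjusted p of 0.055 without the etomoxir library of set 1, and 0.94 with 0.677 without the vehicle library of set 1.

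**Figure D3:**
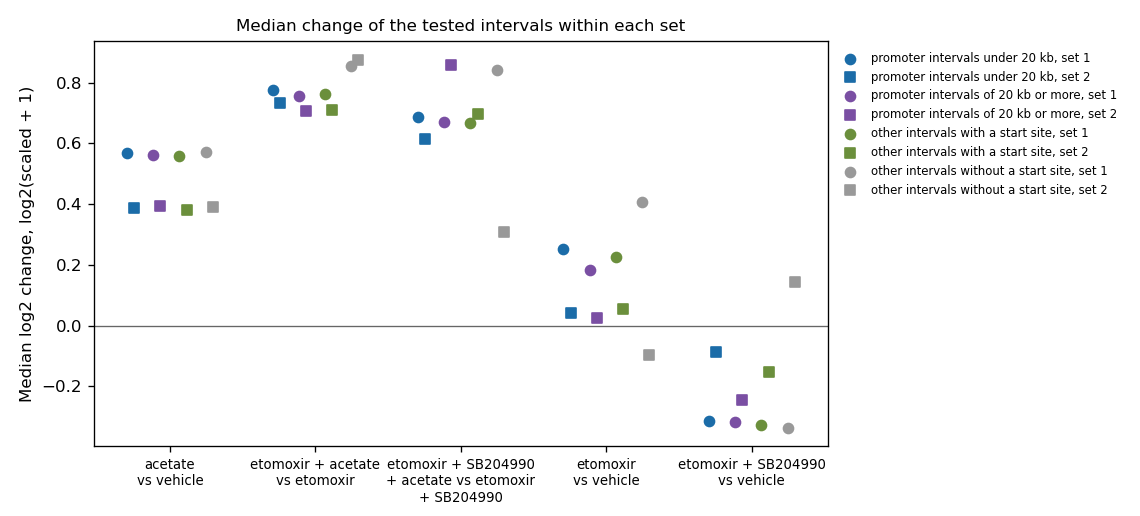
Median log2 change, on the log2(scaled value + 1) scale, of the tested intervals of 4 classes in 5 comparisons, with circles for set 1 and squares for set 2. Promoter intervals under 20 kb lie at 0.39 to 0.77 in the acetate comparisons, and the 2 sets differ most for intervals without a start site with both inhibitors.

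In the presence of etomoxir, acetate raised 3692 of the 5593 promoters (limma, adjusted p under 0.05; 66%) and lowered 0, where 56.4% of all tested intervals were called higher. The median change was 0.76, against 0.83 over all. With median-of-ratios scaling 0 were called, and the named intervals here had changes of 0.53 to 0.69 with a limma adjusted p of 0.875. With depth-free scaling 0 were called as well, but their changes stayed at 1.4 to 1.55 with an adjusted p of 0.36. Pomt1, an O-mannosyltransferase of dystroglycan (chr2:32248906-32251988), had 35.4 and 27.5 in etomoxir and 108 and 76.8 in etomoxir + acetate, a change of 1.52 ± 0.33 (limma adjusted p = 0.0002). Incenp, of the chromosomal passenger complex of mitosis (chr19:9876115-9881871), had 72.6 and 79 against 219 and 191, a change of 1.42 ± 0.25. Cep131, a centrosome and cilium protein, had 130 and 95.6 against 303 and 280, a change of 1.38 ± 0.23. Abcc10, a multidrug transporter (1.5), Cog1 of the Golgi tethering complex (1.45), the formin Fmnl1 (1.44), Polrmt (1.43), the arginine methyltransferase Prmt1 (1.38) and a D830024N08Rik interval with the start of Tecr, an enzyme of fatty acid elongation (1.37), were also among the largest. In each of these both etomoxir + acetate libraries lay above both etomoxir libraries.

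Stronger promoters rose less in this comparison. The median change of the promoters fell from 0.96 at means of 10 to 20 to 0.63 at 500 or more. The other intervals went from 0.9 to 0.71, and from a mean of 50 up they lay above the promoters in each class. The count of 3692 became 1446 and 570 when the set 1 and set 2 libraries of etomoxir were left out in turn, and 404 and 1708 when those of etomoxir + acetate were. The interaction of acetate with etomoxir was called for 0 promoters by limma and 0 by edgeR, with 75 at an unadjusted p under 0.05, and its median was 0.27 for the promoters and 0.33 over all tested intervals (0.52 and 0.58 with depth-free scaling). Its largest values are given among promoters that averaged 50 or more and moved alike in both sets. They were those of AY036118 (1.04 ± 0.3), Ctc1, of telomere replication (0.99 ± 0.45), and Cep131 (0.97 ± 0.33), none of which passed (limma adjusted p = 0.9). It was called for 1 promoter without the vehicle library of set 1.

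With both inhibitors, acetate raised 2430 of the 5593 promoters (limma, adjusted p under 0.05; 43.4%) and lowered 0, where 27.4% of all tested intervals were called higher and 0.00313% lower. The medians were 0.66 and 0.62 (0.24 and 0.21 with depth-free scaling, and 0.43 and 0.23 without the etomoxir + SB204990 library of set 1). The count was 0 with median-of-ratios scaling, with depth-free scaling, with no intensity trend and in a fit of the 4 libraries compared alone, where Enah, Tead2 and Plscr4 had limma adjusted p of 1, 1, 0.109 and 0.45. Their changes were 0.54 to 0.68 under the first of these, 0.74 to 0.89 under depth-free scaling and as given here under the other 2. Enah, an Ena/VASP regulator of actin filaments (chr1:182017866-182021727), had 97.6 and 84 in etomoxir + SB204990 and 188 and 268 with acetate added, a change of 1.3 ± 0.23 (limma adjusted p = 5.9e-05). Tead2, a DNA-binding partner of YAP, had 61.7 and 55 against 128 and 134, a change of 1.16 ± 0.27. Plscr4, of the phospholipid scramblase family, had 52.6 and 47 against 104 and 143, a change of 1.28 ± 0.27. The groups did not overlap in these 3. Gm15569, Fam131b, Gm49490, Agbl5, Mrgprf, Cxxc4 and Tpmt were the others named, with 1.15 to 1.37. Agbl5 had 1.82 in set 1 and 0.7 in set 2, and 0.53 without the etomoxir + SB204990 library of set 1. Without the etomoxir + SB204990 + acetate library of set 2, Fam131b, Agbl5, Cxxc4 and Tpmt had 0.91 to 1.22. The rise differed between sets with the length of the interval. In set 1 the median was 0.92 at 500 to 999 bp and 0.65 at 10000 bp or more, and in set 2 it was 0.22 and 0.8. The set 2 library without acetate is the one that stands apart, and its part in this was not tested. The count raised was 4464 without that library, 1118 (with 15 lowered) without the same treatment in set 1 and 171 without the acetate library of set 2. The interaction of acetate with the inhibitor pair was called for 0 promoters by limma and 0 by edgeR, with 14 at an unadjusted p under 0.05, where 0.00156% of all tested intervals were called lower. Largest among promoters that averaged 50 or more and moved alike in both sets were a 1300002E11Rik interval with the start of Map3k13 (0.86 ± 0.42), Zscan12 (0.82 ± 0.44) and Slc25a15 (0.77 ± 0.34). None of them passed. It was called, as lower, for 5 without the etomoxir + SB204990 library of set 1.

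The inhibitors alone moved few promoters, and the same pair of intervals led every comparison. Etomoxir raised 2 of the 5593 over vehicle, where 0.0563% of all tested intervals were called higher, and lowered 2, where 0.00626% were called lower. Fbp2, the muscle-type fructose bisphosphatase of gluconeogenesis (chr13:62856386-62860871, 4486 bp, over its own start), had 29 and 36.4 in vehicle, 92.6 and 85.3 in etomoxir, 53.1 and 53.4 in acetate, and 167 and 156 in etomoxir + acetate. Etomoxir + SB204990 gave 88 and 76, and 144 and 185 with acetate added. All 8 libraries with etomoxir lay above the 4 without it. The change was 1.42 ± 0.28 for etomoxir over vehicle (limma adjusted p = 0.0009), 1.31 ± 0.28 for etomoxir + SB204990 over vehicle (0.0095 by the same test) and 1.58 ± 0.28 for etomoxir + acetate over acetate (3.6e-05).

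The second interval lies within C2cd3, which encodes a protein of centriole assembly (chr7:100458900-100469983, 11084 bp), and its centre is 230 bp from a start of that gene. The authors list Ucp3, the mitochondrial uncoupling protein and a known target of the fatty acid receptor PPAR, as nearest, with its start 8552 bp from the centre. The interval had 121 and 160 in vehicle, 390 and 373 in etomoxir, 316 and 398 in etomoxir + SB204990, and 224 and 215 in acetate. It had 605 and 539 in etomoxir + acetate, and 475 and 547 in etomoxir + SB204990 + acetate. Again all 8 libraries with etomoxir lay above the 4 without it. The changes were 1.45 ± 0.2 (limma adjusted p = 1.4e-08), 1.34 ± 0.2 (6.8e-07) and 1.38 ± 0.2 (8.2e-08) in the same 3 comparisons. The next interval, which holds the Ucp3 start and is annotated as intron, had 0.73 ± 0.25, 0.78 ± 0.25 and 1.12 ± 0.25 in these comparisons, and of these the last passed (limma adjusted p = 0.0085). An exonic interval after it (chr7:100478242-100482146), listed under Gm10603, had 0.48 ± 0.29, 0.53 ± 0.29 and 1.17 ± 0.29, and of these too the last passed (limma adjusted p = 0.045). The promoter interval of Ucp2 further along had 0.31, 0.07 and 0.48 and did not pass. With median-of-ratios scaling the first 2 comparisons still called Fbp2 (limma adjusted p = 0.045 and 0.0079) and C2cd3 (0.002 and 0.00024), but the last called neither (0.28 and 0.17). With the depth-free scaling, and with no intensity trend in the fit, the adjusted p was 1 for both in the first 2 comparisons, and 0.737 and 0.303 in the last. The changes stayed large, with 1.2, 1.58 and 1.62 for Fbp2 and 1.23, 1.62 and 1.41 for C2cd3 under depth-free scaling, and the same values as above with no trend. Fbp2 also lost its call over vehicle, with changes of 1.26 to 1.48, without the etomoxir library of set 1 (limma adjusted p = 0.525), that of set 2 (0.271) or the vehicle library of set 1 (0.603), and leaving out the last also ended both calls with the inhibitor pair (0.871, and 0.213 for C2cd3, both with a change of 1.14). With the pair, Fbp2 had 1.31 with no filter (adjusted p = 0.101) and in a fit of the 4 libraries compared alone (0.562). It had an adjusted p of 0.0537 to 0.0764 without the vehicle library of set 2 or any 1 of the etomoxir and etomoxir + acetate libraries, and over acetate it had 1.54 with 0.0995 without the etomoxir + acetate library of set 1.

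**Figure D4:**
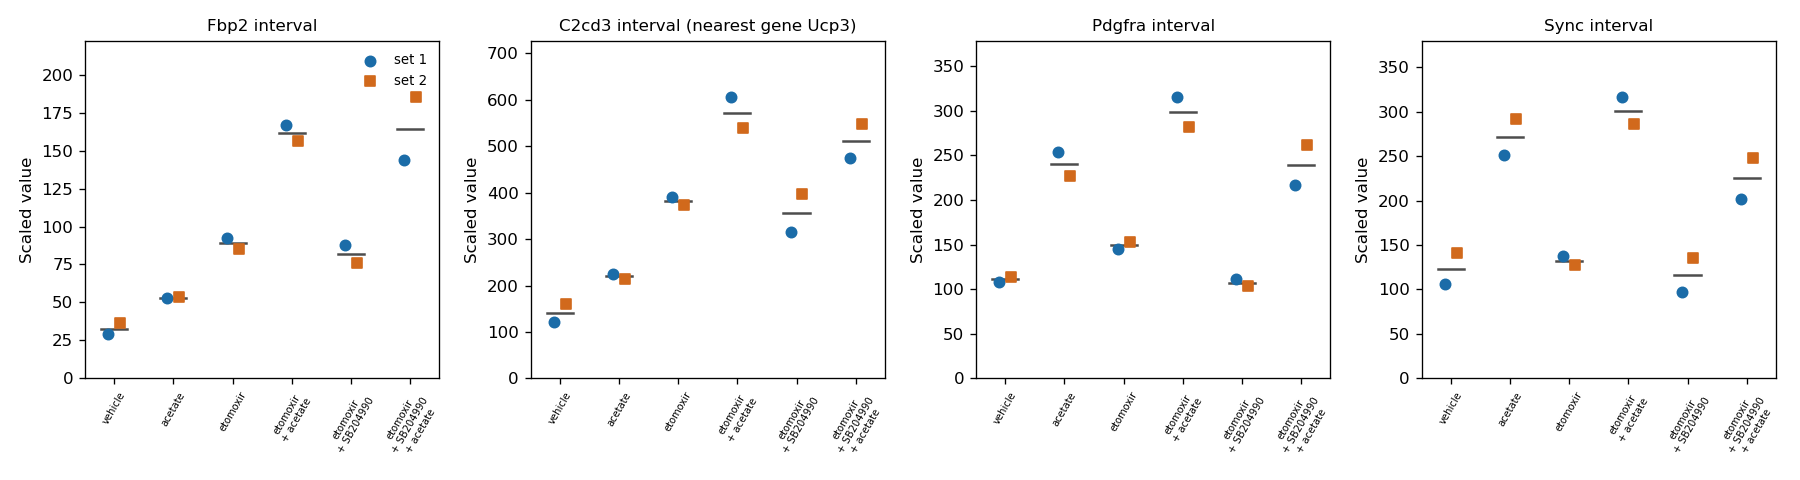
Scaled value of the Fbp2, C2cd3, Pdgfra and Sync promoter intervals in the 12 libraries by treatment, with circles for set 1, squares for set 2 and bars for means of 2. Fbp2 and C2cd3 are higher in all 8 libraries with etomoxir than in the 4 without it, and Pdgfra and Sync are higher in the 6 libraries with acetate than in the 6 without it.

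The 2 intervals lower with etomoxir were those of the ribosomal RNA locus. Gm26917 (chr17:39843038-39847203) had 764 and 1910 in vehicle and 731 and 729 in etomoxir, and AY036118 had 147 and 330 against 113 and 124. The changes were larger in set 2 (-1.39 for Gm26917 and -1.4 for AY036118) than in set 1 (-0.06 and -0.38), and without the vehicle library of set 2 they were -0.0653 and -0.314 (limma adjusted p = 0.954 and 0.928). The etomoxir + SB204990 library of set 2 held 5093 there, the highest of all. The count of 4 in both directions was 1 without the etomoxir library of either set, and 2, both raised, without the vehicle library of set 2 or any 1 of the acetate, etomoxir + acetate or etomoxir + SB204990 + acetate libraries.

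Etomoxir + SB204990 raised 2 of the 5593 promoters over vehicle, the pair above, where 0.0313% of all tested intervals were called higher, and lowered 0, where 0.0219% were called lower (limma, adjusted p under 0.05). The unadjusted p was under 0.05 for 354, and the median was -0.21 for the promoters and -0.14 over all tested intervals. The sign of this median turned with the scaling, since it was 0.06 with the depth-free scaling. Among promoters that averaged 50 or more and moved alike in both sets, the largest fall was at Gm14064, a noncoding gene (chr2:137659681-137666251). This interval had 149 and 173 in vehicle and 61.3 and 109 with the inhibitors and did not pass (-0.96 ± 0.23, limma adjusted p = 0.055). By the same test it did pass with median-of-ratios scaling (0.0339), among intervals that averaged 50 or more (0.0172) and with the set as a block (0.0167). Its change stayed at -0.96 without either etomoxir + SB204990 + acetate library and was -1.37 without the etomoxir + SB204990 library of set 2. Without the vehicle library of set 1 the count raised was 0. Without the etomoxir + SB204990 library of set 1, 29 were raised and 4 lowered, and without that in set 2, 2 were raised and 117 lowered. Without either of those with acetate added, 2 were raised and 5 lowered. The count raised was 1 without any 1 of the etomoxir or etomoxir + acetate libraries. In set 2 the median change was 0.22 at 500 to 999 bp and -0.23 at 5000 to 9999 bp, while in set 1 it was -0.28 and -0.32.

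On the background of acetate, etomoxir raised 5 of the 5593 promoters and lowered 0, where 0.155% of all tested intervals were called higher. Beside Fbp2 and C2cd3 these were Ston2, an endocytic adaptor, with 70.6 and 85.3 in acetate and 203 and 193 in etomoxir + acetate (1.34 ± 0.26, limma adjusted p = 0.00071), Akip1, a partner of protein kinase A (1.06 ± 0.26), and Vwa8, which encodes a mitochondrial ATPase domain protein (0.91 ± 0.22). The groups did not overlap in any of them. With median-of-ratios scaling, depth-free scaling or no intensity trend 0 were called, although under the last 2 Ston2 had 1.37 and 1.34, Akip1 1.1 and 1.06 and Vwa8 0.94 and 0.91 (limma adjusted p 0.737 and 0.303). A fit of the 4 libraries compared alone called 2795. The count was 725 and 727 with the set 1 and set 2 libraries of etomoxir + SB204990 left out in turn, 13 without either of those with acetate added, 1 without the etomoxir + acetate library of set 1, 2 without that of set 2 or the acetate library of set 1, and 3 without the vehicle or acetate library of set 2 or either etomoxir library.

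Gene lists were read by their members among these promoters, and their median average acetate changes ran from 0.51 to 0.73 in the lists of pathways and functions, where all tested promoters had 0.63. Of the cell type markers, 2 fibroblast intervals had a median of 0.99, 1 leukocyte interval had 0.89, 2 epithelial had 0.67 and 2 endothelial had 0.64, and all of these were called. Of 46 genes of fatty acid catabolism and PPAR targets, 15 had a promoter interval here, and 17 intervals were tested. Averaged over backgrounds 14 of the 17 rose with acetate, with a median of 0.61. Acadvl, which oxidizes very long acyl chains, rose by 0.88 and Ucp2 by 0.76, and Hadhb, of the trifunctional protein, by 0.51 and 0.68 in 2 intervals. With etomoxir over vehicle 1 of the 17 was higher, Fbp2, and the median was 0.32 (0.63 in set 1, 0.2 in set 2) against 0.15 over all tested intervals. Eci2, an enoyl-CoA isomerase, had 0.92 in the same comparison and did not pass (limma adjusted p = 0.096).

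Of 22 tested intervals of cytosolic ribosomal proteins all 22 rose with acetate on average, with a median of 0.62, and their level was a median of 68.8 per kb. With etomoxir + acetate over etomoxir 20 of the 22 rose with a median of 0.59, and with both inhibitors 22 of 22 with a median of 0.8, whereas all tested promoters had 0.76 and 0.66 and those with a mean of 500 or more had 0.63 and 0.72. The shares called in these comparisons were 66% and 43.4% of all tested promoters and 94.5% and 99.4% of those with a mean of 500 or more, and the ribosomal list had a median mean of 607. With both inhibitors the list had 0.47 in set 1 and 1.17 in set 2, below and above the 0.69 and 0.61 of all tested promoters. For etomoxir + SB204990 over vehicle their median was -0.36, against -0.21 over all tested promoters and -0.31 over those with a mean of 500 or more, and none passed (limma, adjusted p under 0.05). Of 18 tested mitochondrial ribosome intervals 17 rose (median 0.57), as did 16 of 17 of the nuclear-encoded respiratory chain (0.54) and 8 of 9 of the proteasome (0.67). Psmb8, the immunoproteasome subunit also listed with the interferon response, rose by 1.03.

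Intervals of cholesterol synthesis and uptake had the lowest median average rise of the lists, 0.51, with 6 of 8 called. Idi1, isopentenyl diphosphate isomerase, had 0.27 and did not pass (limma adjusted p = 0.06). Cyp51, lanosterol demethylase, rose by 0.29 and Dhcr7, the last enzyme of the pathway, by 0.79. In fatty acid synthesis 6 of 7 rose (0.55), with Acly itself at 0.61 and Scd1, the stearoyl-CoA desaturase, at 0.42. Of the intervals for acetyl-CoA supply 8 of 9 rose (0.61), including Mpc1 and Mpc2, the mitochondrial pyruvate carrier, at 0.71 and 0.57. Of those for acetyltransferases and deacetylases 12 of 13 rose (0.7), including the acetyltransferase gene Kat6b at 0.59.

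Of the EMT and matrix genes 16 of 17 tested intervals rose (0.69), with Pdgfra at 1.08, the collagen gene Col1a1 at 0.9 and Fn1, fibronectin, at 0.74 and 0.65 in 2 intervals. Of the epithelial junction and identity genes 13 of 13 rose (0.63), with Krt14 at 0.72 and Ovol2, a repressor of EMT, at 0.87. All 14 interferon response intervals rose (0.72), all 6 of the AP-1 and immediate early genes (0.73), all 6 of glycolysis (0.71), 11 of 13 of replication and mitosis (0.62), 13 of 16 of the integrated stress response (0.62), 4 of 5 of the NRF2 response (0.59) and 3 of 4 of the housekeeping references (0.59). Asns, asparagine synthetase and a target of ATF4, had 0.27 and did not pass (limma adjusted p = 0.062). No interval on these lists was called lower in any of the comparisons of 2 groups, and Fbp2 was the only one called in a comparison of inhibitors. With median-of-ratios scaling no promoter, on a list or not, was called with acetate. These shares stand beside a background of 77.2% of all tested intervals and 87.6% of all tested promoters.

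CpG content went with the level of acetylation and, more weakly, with the acetate change. The 1974 intervals with a CpG-rich window had a median of 38.7 per kb and 4559 bp, and the 1034 with a CpG-poor window had 21.6 per kb and 2685 bp. At means of 200 to 500 the levels were 48.1 and 40.9 per kb. With etomoxir + acetate over etomoxir the CpG-rich intervals had a median change of 0.64 and the CpG-poor of 0.77, and the order held within each set (0.69 against 0.79 for set 1 and 0.6 against 0.73 for set 2). At means of 20 to 50 the classes had 0.84 and 0.85, and from 50 up CpG-poor intervals were higher in each class, with 0.61 and 0.69 at 500 or more. For acetate over vehicle the medians were 0.45 and 0.49. With both inhibitors the order turned between sets, which had 0.54 against 0.7 (set 1) and 0.79 against 0.62 (set 2). These are descriptions with no test. Only intervals that hold the start site of a window are counted, so many short intervals are left out. The part of interval strength and length in these differences was not tested beyond the strength classes given.

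**Figure D5:**
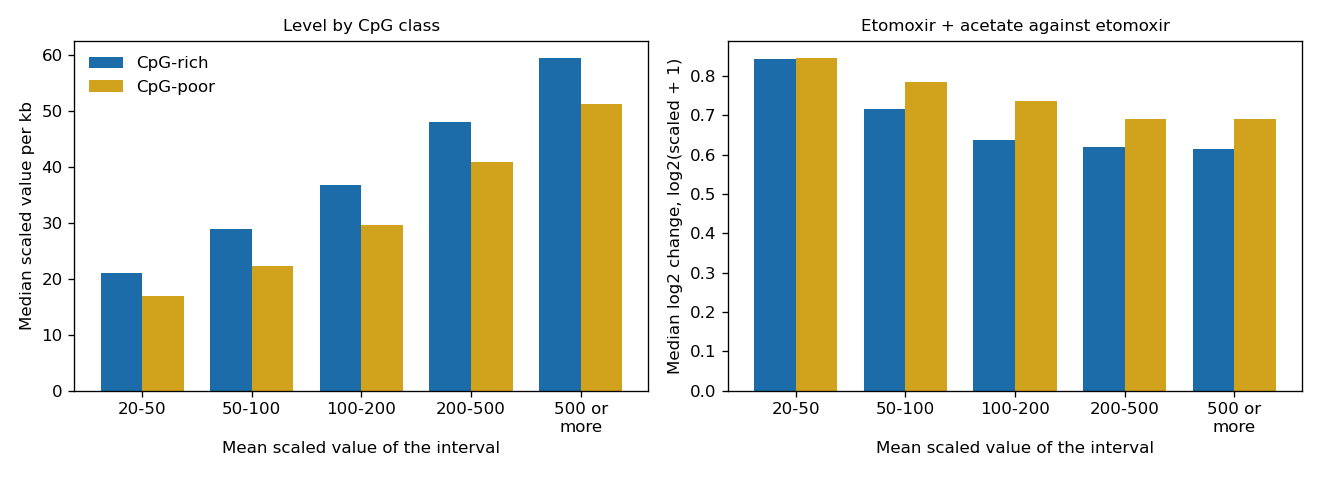
Median scaled value per kb (left) and median log2 change of etomoxir + acetate over etomoxir on the log2(scaled value + 1) scale (right) for promoter intervals with a CpG-rich or CpG-poor RefSeq window, in 5 classes of mean scaled value. CpG-rich intervals have the higher level in each class (59.5 against 51.2 per kb at 500 or more), and CpG-poor intervals have the larger change from 50 up.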

How the data were processed

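H3K27ac ChIP-seq of 4T1 cells was deposited as 1 table of 126464 mouse intervals by 12 libraries, 2 for each of 6 treatments. Per the methods of the study, reads were aligned by the authors to merged human (GRCh38) and mouse (mm10) genomes with the nf-core/chipseq workflow, and factors from the percentage of human spike-in reads were divided by the highest. The deposited signal values are read counts multiplied by these factors. With a factor of 1, 2 columns hold raw counts as deposited. All values of the other 10 (100%, to within 0.01) were whole multiples of their smallest value, from which counts and factors were recovered. Such factors, taken from a percentage but applied to reads, can leave sequencing depth in the values, and any error in a factor shifts a whole library. In vehicle the library with fewer reads had the higher factor (9689378 reads and 0.792, against 14601286 and 0.467). In etomoxir + acetate it had the lower one (13452597 and 0.96, against 13652107 and 1). If the factors already allow for depth, the depth-free scaling removes it again. Which of these holds was not tested. No input was subtracted, and how the intervals were called is not given in the sources used here.

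The sets of intervals and gene lists were chosen with earlier results of these data known. Start sites came from GENCODE vM21, whose build (mm10) matches the coordinates, which count from 1. limma 3.58.1 (R 4.3.3) with an intensity trend was fitted on log2(scaled value + 1) with 6 group means over 12 libraries, for the 63903 intervals averaging 10 or more. With the pseudocount of 1, changes of weak intervals are understated. Totals and shares were compared by exact two-sided permutation tests. edgeR 4.0.16 on recovered reads, with the factors as offsets, was added after the data were seen. The other alternatives were median-of-ratios and depth-free scaling (read share times factor), filters, pseudocount, trend, fewer libraries and a replicate block. Scripts were tested on simulated data. Named intervals are the up to 10 with the largest change in each direction per comparison, among called intervals that averaged 50 or more and moved the same way in both sets (filled to 3 with intervals said not to pass), the 10 highest by mean and per kb, and those nearest the length limit. Other intervals named are members of the gene lists, and the values of neighbours of C2cd3 and the examples within lists were picked after values were seen. Promoter windows came from RefSeq (GRCm38.p6). Some intervals that meet these rules are not reported here.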

Additional observations from a re-analysis of the deposited data

How the results depend on the processing

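The acetate rise of the promoter total kept its direction under all alternatives run (0.542 to 0.674 with 1 library left out) but fell to 0.404 (p = 0.12, exact permutation) with the depth-free scaling. The effects on the share were small and changed with the measure: with the median of log2(scaled value + 1) in place of sums the acetate effect was 0.124 (p = 0.00926, exact permutation), the reverse of -0.0204, and the cause was not tested. With 1 library left out it ran from -0.052 to 0.0112, the etomoxir effect from -0.0272 to 0.0144 and that of the inhibitor pair from -0.0596 to 0.0351. Against other intervals with a start site the effects were -0.0201 for acetate, 0.0136 for etomoxir and 0.0161 for the pair, and against promoter intervals of 20000 bp or more 0.0265 for etomoxir and 0.0129 for the pair. Counts of promoters called, in both directions together, moved with several choices. Median-of-ratios scaling, which removes a shift common to all intervals by construction (a median of 0.641 for the average acetate effect), and the depth-free scaling each gave 0 calls for the average acetate effect, for acetate in each background and for etomoxir + acetate over acetate. For etomoxir over vehicle they gave 2 and 0, and for the inhibitor pair the latter gave 0. With a mean of at least 50 the counts were 3155 of fewer intervals tested for the average, 698 for acetate over vehicle and 16 for etomoxir + acetate over acetate. With no filter they were 0 for acetate over vehicle, 1598 for acetate with both inhibitors, 2 for etomoxir, 1 for the pair and 3 for etomoxir + acetate over acetate. With no intensity trend they were 0 for acetate over vehicle, for acetate with both inhibitors, for etomoxir, for the pair and for etomoxir + acetate over acetate, and 2088 for acetate with etomoxir. With only the libraries of the comparison they were 1883 for acetate over vehicle, 0 for acetate with both inhibitors, 13 for etomoxir, 1 for the pair and 2795 for etomoxir + acetate over acetate. edgeR on recovered reads called 4 for the pair, and higher 4931 for the average, 9 for acetate over vehicle, 3803 with etomoxir and 2420 (with 2 lower) with both inhibitors. Leaving out 1 library gave 4164 to 5469 for the average, 0 to 1555 for acetate over vehicle, 404 to 4723 with etomoxir, 171 to 4464 with both inhibitors, 1 to 6 for etomoxir, 0 to 119 for the pair, 1 to 727 for etomoxir + acetate over acetate, and 0 to 1 and 0 to 5 for the interactions; a group left with 1 library is assumed to vary like the others. The sets share a suffix and, since 1 library of each had a factor of 1, a scale of factors. The differences between sets, with their median taken out of each group, correlated between -0.149 and 0.354 over 15 pairs of groups, 3 of them over 0.1. This check does not cover a shift common to all intervals of a set. With the replicate block the counts were 208 for acetate over vehicle and 12 for etomoxir + acetate over acetate, and the other counts stayed within 1.5 times. For the named intervals, 894 of the values under alternatives stayed on the same side of the threshold, 266 lost the call and 6 gained it, and none changed direction. Of the promoter intervals, 2576 had a mean under 10 and were not tested, so the main counts do not cover them.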

Other observations

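Promoter intervals that held coding starts on both strands numbered 721, and 718 were tested. They were strong for their class, with a median mean of 245 and 41 per kb, against 22.4 and 19.7 for all promoter intervals under 20 kb. Their median change with acetate was 0.58 on average over the backgrounds, 0.65 with etomoxir and 0.66 with both inhibitors. The strongest among the named ones were the shared interval of Fam76b and Cep57, with a mean of 1632 and 142 per kb, and that of Ndufb9 and Tatdn1. Ptbp1, which encodes a splicing repressor, has its start in an interval annotated to the noncoding E130317F20Rik, with a mean of 1379.

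The 1170 intervals annotated to genes that are not protein-coding were close to the others, with a median of 19.5 per kb against 19.7 and an average acetate change of 0.62 against 0.63. Intervals that did not hold their start differed between sets more than those that did. They were also weaker, with a median mean of 6.87 against 61. Tested intervals of 500 to 999 bp, with or without a start, had 0.46 in set 1 and -0.18 in set 2 for etomoxir over vehicle. The part of strength and length in this was not tested. With etomoxir over vehicle the 600 tested without a start had a median of 0.53 in set 1 and -0.24 in set 2, and the 4993 with a start had 0.23 and 0.06. With both inhibitors and acetate over the inhibitors alone they had 0.96 and 0.17, against 0.66 and 0.65.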
